A study of Homo sapiens with 30 samples.

Results

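CYP2W1, GPR146 and GPER1 are near neighbours at the end of the short arm of human chromosome 7, in band 7p22, and were described here together with 5 neighbours, SUN1, ADAP1, C7orf50, ZFAND2A and MAFK, in human B cell lymphoma cell lines exposed to doxorubicin. The 8 genes were taken by symbol from 60656 gene entries listed in each of 2 expression tables and joined between the tables by gene ID. CYP2W1, GPR146 and GPER1 were selected because their levels were low in doxorubicin-resistant OCI-LY19R cells, so that contrast is described without a test, and the other 5 genes were added for their position.

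RNA sequencing (poly(A)-selected, directional libraries) was carried out on 30 libraries in 10 groups of 3, each described as coming from separate experiments. The lines OCI-LY19, SUDHL5, OCI-LY3 and HT, all from diffuse large B cell lymphoma, made up 8 of the groups, each line after 24 h in 0.2 µM doxorubicin and untreated at 0 h. OCI-LY19R was a doxorubicin-resistant derivative of OCI-LY19 kept in 20 nM doxorubicin until 1 week before use, and OCI-LY19S was its parental line kept without drug. All groups were labelled wild type. There was no untreated library at 24 h, so drug and culture time cannot be told apart, and OCI-LY19R is a single derivative. Doxorubicin is an anthracycline that intercalates into DNA and poisons topoisomerase II. The titles of treated libraries carry the word "ctrl", and libraries were grouped by their treatment label.

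CYP2W1 is an orphan cytochrome P450, an enzyme of the endoplasmic reticulum with little expression in most healthy adult tissues and high expression in a subset of colorectal tumours. GPR146 is a G protein-coupled receptor whose loss lowers plasma cholesterol in mice. GPER1 is a G protein-coupled receptor that binds estrogen and signals at membranes, apart from the nuclear estrogen receptors ESR1 and ESR2. Of the neighbours, SUN1 spans the inner nuclear membrane as part of the complex that links the nucleoskeleton to the cytoskeleton. ADAP1 is a GTPase-activating protein for ARF6. ZFAND2A is a stress-inducible zinc-finger protein that associates with the proteasome. MAFK is a small MAF protein that binds DNA as a partner of NFE2L2 and BACH1. C7orf50 also carries the symbol CHLSN.

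Positions and exons are from the GENCODE 29 annotation of GRCh38, and gene IDs are as deposited, with later version numbers than in that release. SUN1 (ENSG00000164828.18, chr7:816615-896435, plus strand) and ADAP1 (ENSG00000105963.15, chr7:897901-955407, minus strand) lie before CYP2W1 (ENSG00000073067.14, chr7:983199-989640, plus strand). C7orf50 (ENSG00000146540.15, chr7:996986-1138260, minus strand) follows, and GPR146 (ENSG00000164849.10, chr7:1044576-1059261) and GPER1 (ENSG00000164850.15, chr7:1082208-1093815) lie within its span on the plus strand. ZFAND2A (ENSG00000178381.12, chr7:1152071-1160759, minus strand) and MAFK (ENSG00000198517.10, chr7:1530714-1543043, plus strand) come after. The start of GPR146 was 61.4 kb and that of GPER1 99.0 kb from the start of CYP2W1. Exons of CYP2W1 and GPER1 overlapped no other annotated exon. Of the 3160 exon bases of GPR146, 1562 (49.4%) were shared with the antisense RNA AC073957.2 on the opposite strand, and the strand setting of the counting is not given in the sources used here, so reads of these 2 genes may have been split or mixed. SUN1 shared 15.6% of its exon bases with GET4, ADAP1 23.4% with COX19, both on the same strand, and MAFK 18.1% with TMEM184A on the opposite strand.

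The promoter sequences of CYP2W1, GPR146 and GPER1 are shown because these 3 genes were the ones low together in OCI-LY19R. Each is 300 bases on the plus strand (250 before to 50 after an annotated start, RefSeq, GRCh38.p14), for CYP2W1 at chr7:982931-983230, for GPR146 at chr7:1055120-1055419 and for GPER1 at chr7:1086868-1087167. Capitals mark matches to the GC box GGGCGG on either strand.
CYP2W1: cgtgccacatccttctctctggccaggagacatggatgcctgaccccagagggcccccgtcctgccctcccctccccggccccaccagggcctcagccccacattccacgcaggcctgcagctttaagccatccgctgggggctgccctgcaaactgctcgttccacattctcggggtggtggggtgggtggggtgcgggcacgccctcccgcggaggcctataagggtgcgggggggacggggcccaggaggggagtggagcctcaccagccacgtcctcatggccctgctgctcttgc
GPR146: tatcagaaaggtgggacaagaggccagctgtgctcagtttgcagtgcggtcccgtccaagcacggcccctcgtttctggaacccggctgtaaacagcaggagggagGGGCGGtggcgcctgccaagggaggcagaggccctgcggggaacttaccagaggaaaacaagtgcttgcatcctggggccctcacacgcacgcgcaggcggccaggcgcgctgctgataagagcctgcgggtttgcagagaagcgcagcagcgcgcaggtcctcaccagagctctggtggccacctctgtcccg
GPER1: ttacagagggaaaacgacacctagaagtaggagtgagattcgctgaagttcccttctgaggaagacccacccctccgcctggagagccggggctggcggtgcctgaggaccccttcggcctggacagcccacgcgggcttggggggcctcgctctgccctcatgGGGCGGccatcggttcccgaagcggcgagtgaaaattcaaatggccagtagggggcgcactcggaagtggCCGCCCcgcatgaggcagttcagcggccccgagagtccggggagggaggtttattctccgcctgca
The CYP2W1 window held no match to any of 6 motifs searched on both strands, the GPR146 window held 1 GC box and the GPER1 window 2. The other motifs were the E-box CACGTG, the AP-1 site TGAGTCA, the cyclic AMP response element TGACGTCA, the antioxidant response element TGACNNNGC and the heat shock element, and none of these 5 was found in the 3 windows shown. GPR146 and GPER1 have further starts, and the GPR146 window at chr7:1044296-1044595 held 7 GC boxes and 1 E-box. Among 35116 RefSeq promoters of the same length, 45.0% held a GC box, 7.26% the E-box, 4.95% the AP-1 site, 1.85% the cyclic AMP response element, 13.3% the antioxidant response element and 0.49% the heat shock element. The windows had 14 CpG dinucleotides in CYP2W1, 19 in GPR146 and 22 in GPER1, against a median of 14 over all promoters. Their GC content was 69.7% in CYP2W1 and 64.7% in each of GPR146 and GPER1, against a median of 58.7%. ADAP1 and C7orf50 (as CHLSN) also have further annotated starts, ZFAND2A has 1, and SUN1 and MAFK were not matched.

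Levels are in FPKM (fragments per unit of exon length and of mapped depth), which adjusts for gene length and depth. Libraries held 16067405 to 38337869 counted reads, apart from OCI-LY19S replicate 3 with 121769122. The B cell markers MS4A1, CD79A, CD79B, PAX5 and CD22 summed to 178 to 1444 FPKM in all 30 libraries, and the sums of T and NK cell markers reached 17.4 FPKM, those of myeloid markers 26.1 FPKM and those of stromal, epithelial and endothelial markers 4.94 FPKM. The part of those other markers in the results was not tested. The libraries are bulk RNA, in which fewer cells that express a gene and less RNA per cell cannot be told apart. Unless another test is named, adjusted p-values are from limma on log2(FPKM + 1), two-sided, with Benjamini-Hochberg adjustment over all genes tested and a threshold of 0.05, and a log2 change is on that scale, which understates changes of low genes.

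**Figure D1:**
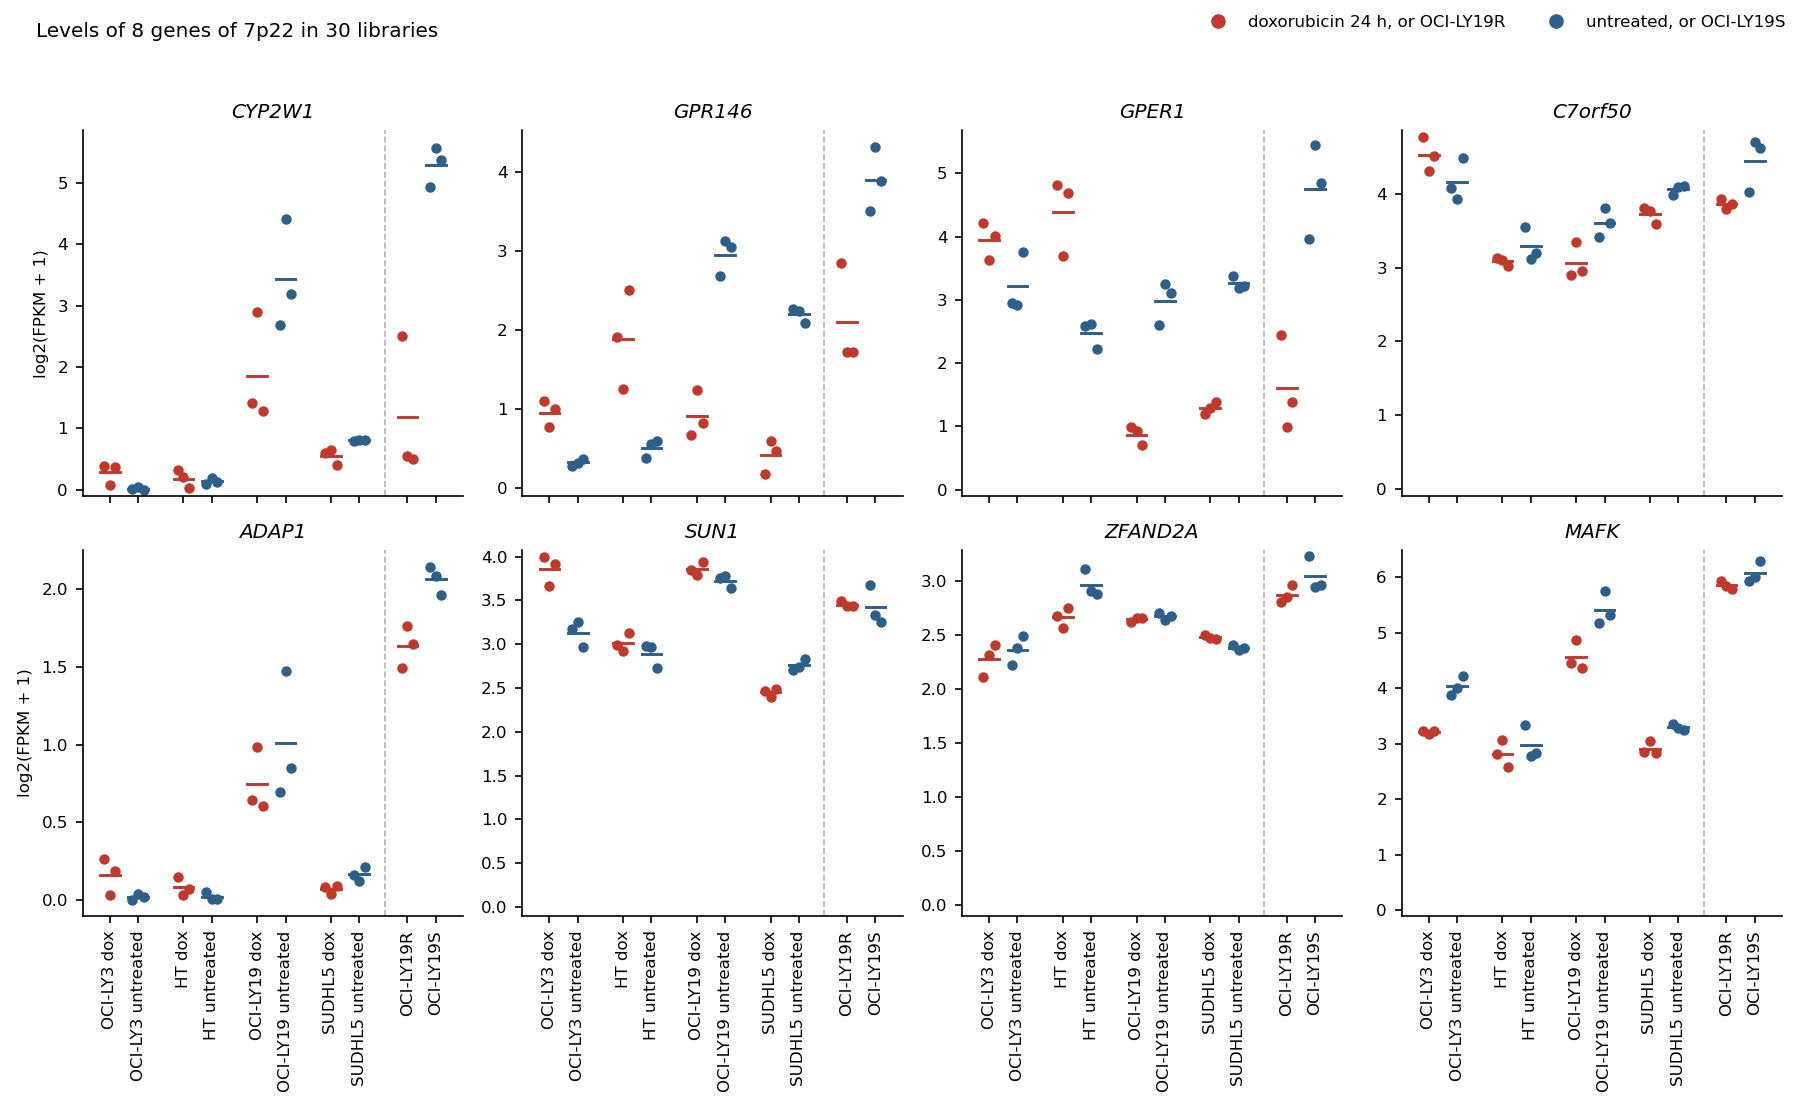
Levels of the 8 genes in all 30 libraries, as log2(FPKM + 1), with 1 point per library and a bar at the mean of each group on that scale, the doxorubicin or OCI-LY19R group left of its untreated or OCI-LY19S group. GPER1 in HT is at 27.0, 11.9 and 24.8 FPKM after doxorubicin, above 4.98, 5.12 and 3.67 FPKM untreated, and the order is the opposite in OCI-LY19 and SUDHL5.

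Before treatment, the genes differed widely between lines. CYP2W1 had 5.40, 20.4 and 8.16 FPKM in untreated OCI-LY19, 0.735, 0.746 and 0.764 FPKM in SUDHL5, 0.066, 0.138 and 0.093 FPKM in HT and 0.014, 0.027 and 0 FPKM in OCI-LY3. It was thus above 1 FPKM in 1 of the 4 lines, and the 3 OCI-LY3 libraries held 1, 2 and 0 reads of it. OCI-LY19 exceeded SUDHL5 (adjusted p = 1.26e-06), SUDHL5 and HT did not pass the test (adjusted p = 0.0967), nor did HT and OCI-LY3 (adjusted p = 0.816).

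GPR146 followed the same order, with 5.43, 7.77 and 7.31 FPKM in untreated OCI-LY19, 3.82, 3.73 and 3.25 FPKM in SUDHL5, 0.302, 0.471 and 0.510 FPKM in HT and 0.216, 0.249 and 0.294 FPKM in OCI-LY3. OCI-LY19 was above SUDHL5 (adjusted p = 0.00429) and SUDHL5 above HT (adjusted p = 1.02e-06), while HT and OCI-LY3 were not separated (adjusted p = 0.492). GPER1 was more even, at 6.74, 6.60 and 12.5 FPKM in OCI-LY3, 9.39, 8.12 and 8.30 FPKM in SUDHL5, 5.10, 8.48 and 7.61 FPKM in OCI-LY19 and 4.98, 5.12 and 3.67 FPKM in HT. No neighbours in that order passed the test (adjusted p = 0.891, 0.347 and 0.0844), while the test over all 4 lines did (adjusted p = 0.0253).

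Of the neighbours, MAFK was highest in untreated OCI-LY19 at 35.2, 53.1 and 39.1 FPKM, followed by OCI-LY3 at 15.5 ± 2.0 FPKM, SUDHL5 at 8.87 ± 0.407 FPKM and HT at 7.04 ± 1.76 FPKM (SD, n = 3 each), with SUDHL5 and HT not separated (adjusted p = 0.0955). SUN1 was at 12.2 ± 0.649 FPKM in OCI-LY19, 7.79 ± 0.897 FPKM in OCI-LY3, 6.44 ± 0.718 FPKM in HT and 5.76 ± 0.290 FPKM in SUDHL5, of which HT and SUDHL5 were not separated (adjusted p = 0.21). ZFAND2A spanned 4.15 ± 0.473 FPKM in OCI-LY3 to 6.81 ± 0.722 FPKM in HT. C7orf50 spanned 8.87 ± 1.59 FPKM in HT to 17.2 ± 3.74 FPKM in OCI-LY3. ADAP1 was above 1 FPKM in only 1 of the 24 libraries of the 4 lines, untreated OCI-LY19 replicate 2 with 1.78 FPKM, and did not pass the filter on low values there. All 7 tested genes differed among the untreated lines, as did 90.5% of the 17645 genes tested. Between pairs of untreated lines, the share of all genes called was 71.0% for OCI-LY19 and SUDHL5, 67.0% for HT and SUDHL5, 66.0% for OCI-LY3 and SUDHL5, 64.4% for HT and OCI-LY19, 62.8% for OCI-LY3 and OCI-LY19 and 62.1% for OCI-LY3 and HT.

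After 24 h of doxorubicin, GPR146 and GPER1 moved together, upward in OCI-LY3 and HT and downward in OCI-LY19 and SUDHL5. CYP2W1 fell in OCI-LY19, MAFK fell in OCI-LY3 and OCI-LY19, and SUN1 rose in OCI-LY3 and fell in SUDHL5. In OCI-LY3, 5 of the 7 tested genes passed the test (4 higher, 1 lower), where 54.7% of all genes did (40.4% higher, 14.3% lower). In HT it was 3 of 7 (2 higher, 1 lower) beside 32.3% of all genes (22.9% higher, 9.41% lower). In OCI-LY19 it was 5 of 7, all lower, beside 58.2% (34.5% higher, 23.7% lower), and in SUDHL5 3 of 7, all lower, beside 38.5% (18.6% higher, 19.9% lower). Counted in either direction, the number of genes called was therefore not far from the background in any line. By direction it was less even, since all calls in OCI-LY19 and SUDHL5 were lower, beside 23.7% and 19.9% of all genes called lower. With 7 genes these counts are a description.

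Treated and untreated libraries did not overlap for 4 of the 7 genes in OCI-LY3, 3 in HT, 5 in OCI-LY19 and 7 in SUDHL5, beside 57.4% of all genes in OCI-LY3, 42.2% in HT, 61.2% in OCI-LY19 and 59.9% in SUDHL5. The SUDHL5 replicates lay closer together than those of the other lines.

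**Figure D2:**
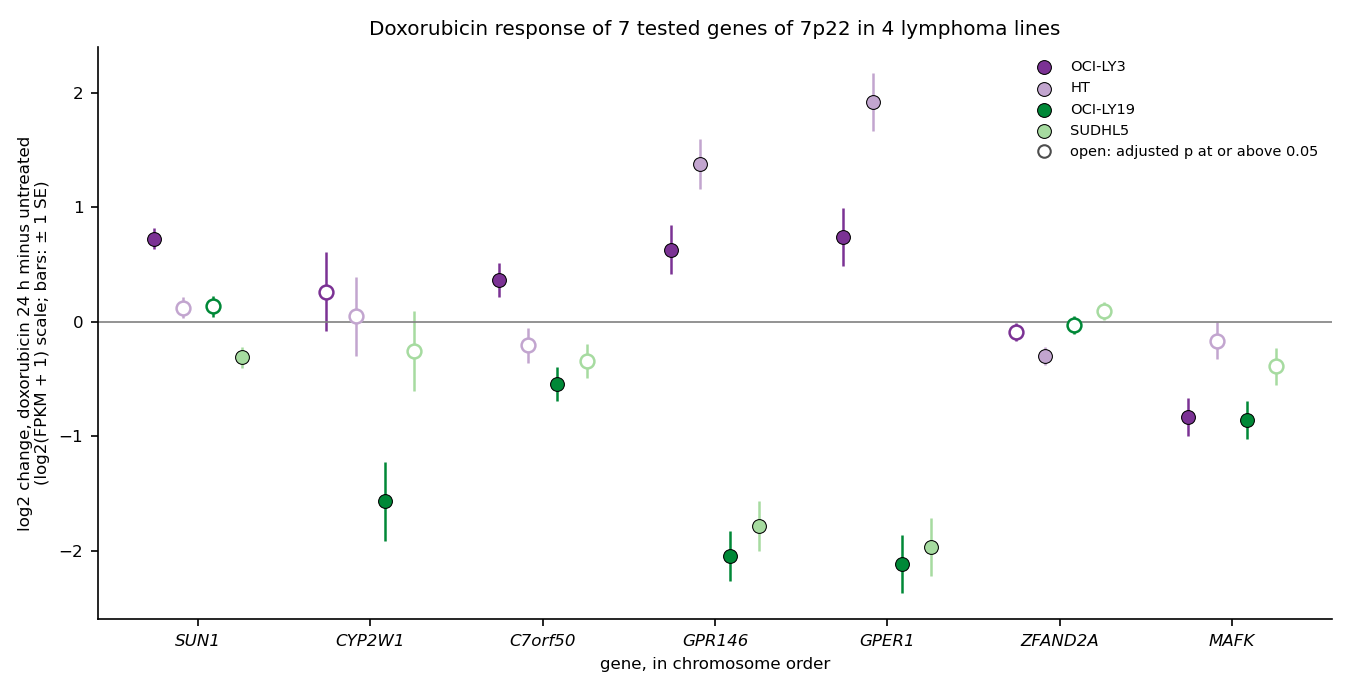
Log2 change (doxorubicin 24 h minus untreated 0 h, on the log2(FPKM + 1) scale) with its standard error for the 7 tested genes in the 4 lines; filled points have an adjusted p under 0.05 by limma and open points do not. GPER1 and GPR146 are above 0 in OCI-LY3 and HT and below 0 in OCI-LY19 and SUDHL5.

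GPER1 had the response that diverged most between lines among the 7 tested genes on the log2(FPKM + 1) scale, although ratios of means were larger for GPR146, the lower gene, in HT and SUDHL5. In HT it had 27.0, 11.9 and 24.8 FPKM after doxorubicin, against 4.98, 5.12 and 3.67 FPKM untreated. Every treated HT library was above every untreated one, the ratio of the means was 4.62, and the log2 change was 1.92 ± 0.25 (SE; adjusted p = 1.61e-05). In OCI-LY19 GPER1 had 0.976, 0.896 and 0.630 FPKM after doxorubicin, against 5.10, 8.48 and 7.61 FPKM untreated.
The treated OCI-LY19 libraries were all below 1 FPKM, the mean was 8.47-fold lower, and the log2 change was -2.12 ± 0.25 (adjusted p = 6.9e-07). In SUDHL5 it had 1.30, 1.45 and 1.61 FPKM after doxorubicin, against 9.39, 8.12 and 8.30 FPKM untreated, again without overlap. The SUDHL5 mean was 5.92-fold lower, with a log2 change of -1.97 ± 0.25 (adjusted p = 4.21e-06).
In OCI-LY3, GPER1 had 17.5, 11.3 and 15.2 FPKM after doxorubicin, against 6.74, 6.60 and 12.5 FPKM untreated. One untreated OCI-LY3 library lay within the treated range, and the log2 change of 0.74 ± 0.25 passed the test narrowly (adjusted p = 0.0186). That call was lost with the OCI-LY3 libraries fitted alone (adjusted p = 0.0838), with median-of-ratios scaling (0.49, adjusted p = 0.120) and without treated replicate 1 (0.61, adjusted p = 0.0859), treated replicate 3 (0.71, adjusted p = 0.0505), untreated replicate 1 (0.61, adjusted p = 0.0838) or untreated replicate 2 (0.60, adjusted p = 0.0856). All genes together had a median log2 change of 0.16 in OCI-LY3.

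GPR146, the other receptor, followed the same pattern from lower levels. In HT it had 2.75, 1.38 and 4.69 FPKM after doxorubicin, against 0.302, 0.471 and 0.510 FPKM untreated. The HT groups did not overlap, the mean was 6.87-fold higher, and the log2 change was 1.38 ± 0.22 (adjusted p = 9.13e-05). With the HT libraries fitted alone and the replicate number as a block, the adjusted p was 0.0549. In OCI-LY3 GPR146 had 1.14, 0.704 and 1.0 FPKM after doxorubicin, against 0.216, 0.249 and 0.294 FPKM untreated.
All treated OCI-LY3 libraries were higher, with a log2 change of 0.63 ± 0.22 (adjusted p = 0.0187) that missed the threshold without treated replicate 1 (0.56, adjusted p = 0.0690) and under quantile normalization (0.34, adjusted p = 0.199). In OCI-LY19 it had 0.588, 1.37 and 0.766 FPKM after doxorubicin, against 5.43, 7.77 and 7.31 FPKM untreated. The OCI-LY19 mean was 7.52-fold lower (log2 change -2.05 ± 0.22, adjusted p = 1.44e-07). In SUDHL5 it had 0.133, 0.516 and 0.386 FPKM after doxorubicin, against 3.82, 3.73 and 3.25 FPKM untreated.
The SUDHL5 mean was 10.4-fold lower (log2 change -1.78 ± 0.22, adjusted p = 2.09e-06), and neither OCI-LY19 nor SUDHL5 groups overlapped.

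Among all 17645 tested genes, 268 (1.52%) rose in both OCI-LY3 and HT and fell in both OCI-LY19 and SUDHL5, GPER1 and GPR146 among them. Ranked by log2 change, GPER1 was 13th and GPR146 50th from the highest in HT, 19th and 22nd from the lowest in OCI-LY19, and 26th and 41st from the lowest in SUDHL5. The response of GPER1 in HT minus that in OCI-LY19 was 4.04 ± 0.36 on the log2 scale (adjusted p = 3.89e-08, beside 45.2% of genes called), and GPR146 differed by 3.42 ± 0.31 (adjusted p = 4.39e-08). Of all genes tested these differences were the 1st and 7th largest with a pseudocount of 1, and ranks with other pseudocounts were not computed. In HT minus SUDHL5 the difference was 3.89 ± 0.36 for GPER1 (adjusted p = 9.84e-08) and 3.16 ± 0.31 for GPR146 (adjusted p = 1.84e-07), beside 37.0% of genes called. OCI-LY3 also differed from OCI-LY19, by 2.86 ± 0.36 for GPER1 (adjusted p = 2.33e-06) and 2.68 ± 0.31 for GPR146 (adjusted p = 7.49e-07), beside 47.7%, and from SUDHL5, by 2.71 ± 0.36 for GPER1 (adjusted p = 4.6e-06) and 2.42 ± 0.31 for GPR146 (adjusted p = 2.82e-06), beside 49.4%. Between OCI-LY19 and SUDHL5, the responses differed by -0.15 ± 0.36 for GPER1 (adjusted p = 0.775) and by -0.26 ± 0.31 for GPR146 (adjusted p = 0.525), which did not pass the test, as 43.9% of genes did. OCI-LY3 and HT, both upward, differed for GPER1 by -1.18 ± 0.36 (adjusted p = 0.0176, beside 29.4% of genes called) and not detectably for GPR146 (-0.75 ± 0.31, adjusted p = 0.0761). Over the 4 lines together, the response differed for all 7 tested genes, as for 72.2% of all genes. The call of MAFK was lost with no filter on low genes (adjusted p = 0.0579), that of ZFAND2A on a TPM scale (adjusted p = 0.0707) and under voom (adjusted p = 0.225), and that of CYP2W1 under voom (adjusted p = 0.0937).

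The antisense RNA AC073957.2, which shares exon bases with GPR146, moved with it. Its log2 change was 0.58 ± 0.26 in OCI-LY3 (adjusted p = 0.0660), 1.46 ± 0.26 in HT (adjusted p = 0.000268), -2.42 ± 0.26 in OCI-LY19 (adjusted p = 1.5e-07) and -2.10 ± 0.26 in SUDHL5 (adjusted p = 2.26e-06). Per 100 reads assigned to GPR146, 45.5 to 85.1 (median 74.0) were assigned to AC073957.2 in the 22 libraries with at least 50 GPR146 reads. The ratio varied less between libraries than the level of GPR146 did, and how much of either gene's count came from the other strand was not tested.

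**Figure D3:**
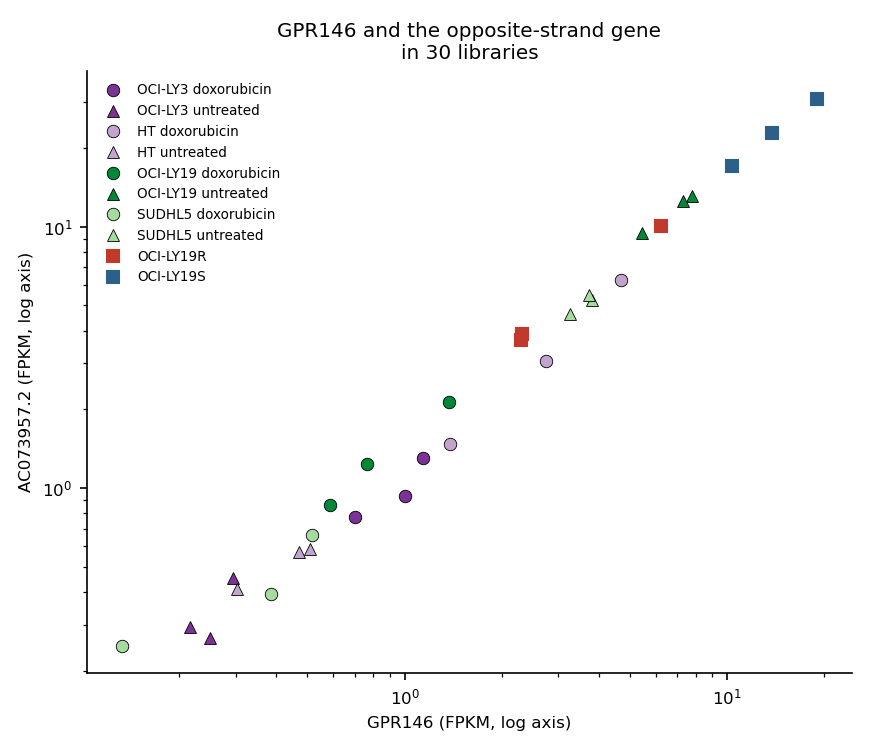
Level of the antisense RNA AC073957.2 against that of GPR146, both in FPKM on log axes, with 1 point for each of 30 libraries and colours by line. The points run along a line, with a median of 74.0 antisense reads per 100 GPR146 reads in the 22 libraries with at least 50.

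CYP2W1 fell in the line where its level was highest. In OCI-LY19 it had 1.66, 6.45 and 1.42 FPKM after doxorubicin, against 5.40, 20.4 and 8.16 FPKM untreated. The groups overlapped, since replicate 2 was the highest in both, the mean was 3.56-fold lower after doxorubicin, and the log2 change was -1.57 ± 0.35 (adjusted p = 0.000673). With the OCI-LY19 libraries fitted alone, the adjusted p was 0.0862. The call was kept in 16 of 17 alternatives, among them the fit of OCI-LY19 alone with the replicate block. In SUDHL5 CYP2W1 had 0.519, 0.562 and 0.321 FPKM after doxorubicin, against 0.735, 0.746 and 0.764 FPKM untreated.
The SUDHL5 groups did not overlap, but the log2 change of -0.26 ± 0.35 did not pass the test (adjusted p = 0.625). It did so with the SUDHL5 libraries fitted alone (adjusted p = 0.0265). In OCI-LY3 it had 24, 4 and 20 reads after doxorubicin, against 1, 2 and 0 reads untreated. The OCI-LY3 groups did not overlap, and the log2 change of 0.26 ± 0.35 (adjusted p = 0.569) became 1.39 with a pseudocount of 0.1 (adjusted p = 0.0297) and 3.43 ± 1.79 under voom (adjusted p = 0.140). In HT it had 11, 16 and 2 reads after doxorubicin, against 4, 10 and 8 reads untreated. Levels in OCI-LY3 and HT were thus a few reads per library, and no difference in HT was detectable at this depth. The response differed between OCI-LY19 and SUDHL5 by -1.31 ± 0.49 (adjusted p = 0.0366), and between HT and OCI-LY19 by 1.62 ± 0.49 (adjusted p = 0.0112).

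C7orf50, whose span holds GPR146 and GPER1, changed far less. In OCI-LY19 it had 6.45, 9.20 and 6.73 FPKM after doxorubicin, against 9.67, 13.0 and 11.2 FPKM untreated, with no overlap and a log2 change of -0.54 ± 0.15 (adjusted p = 0.00423). In OCI-LY3 it had 26.3, 18.9 and 21.8 FPKM after doxorubicin, against 15.9, 14.3 and 21.4 FPKM untreated. These OCI-LY3 groups overlapped, and the log2 change of 0.36 ± 0.15 (adjusted p = 0.0475) lost its call in 14 of 17 alternative settings, with adjusted p up to 0.624. HT (-0.21 ± 0.15, adjusted p = 0.335) and SUDHL5 (-0.34 ± 0.15, adjusted p = 0.0836) did not pass the test, although SUDHL5 did in 3 of 17 alternatives, on a TPM scale (-0.44, adjusted p = 0.0295) and with its libraries fitted alone, without the block (adjusted p = 0.00993) and with it (adjusted p = 0.0424). ADAP1, not tested in the 4 lines, had 0.561, 0.982 and 0.521 FPKM in doxorubicin-treated OCI-LY19, against 0.622, 1.78 and 0.803 FPKM untreated, and was at or below 0.201 FPKM in every library of the other lines.

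SUN1 rose in OCI-LY3, with 14.9, 11.6 and 14.1 FPKM after doxorubicin, against 8.02, 8.54 and 6.79 FPKM untreated (log2 change 0.73 ± 0.09, adjusted p = 1.54e-06). In SUDHL5 it had 4.53, 4.25 and 4.61 FPKM after doxorubicin, against 5.54, 5.66 and 6.09 FPKM untreated (-0.31 ± 0.09, adjusted p = 0.0114). The groups were apart in both lines, and the SUDHL5 call was lost without untreated replicate 3 (adjusted p = 0.0518). In HT (0.12 ± 0.09, adjusted p = 0.349) and OCI-LY19 (0.14 ± 0.09, adjusted p = 0.217) SUN1 did not pass the test. GET4, which shares 15.6% of the exon bases of SUN1 on the same strand, also rose in OCI-LY3 (1.05 ± 0.16, adjusted p = 1.48e-05) and in OCI-LY19 (1.03 ± 0.16, adjusted p = 1.63e-05).

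MAFK fell in OCI-LY19, with 21.0, 28.2 and 19.5 FPKM after doxorubicin, against 35.2, 53.1 and 39.1 FPKM untreated (log2 change -0.86 ± 0.16, adjusted p = 0.000154). In OCI-LY3 it had 8.34, 8.04 and 8.34 FPKM after doxorubicin, against 13.8, 15.0 and 17.7 FPKM untreated (-0.83 ± 0.16, adjusted p = 0.000239). Neither pair of groups overlapped, and the means were 1.85-fold lower in OCI-LY19 and 1.88-fold lower in OCI-LY3. HT (-0.16 ± 0.16, adjusted p = 0.506) and SUDHL5 (-0.39 ± 0.16, adjusted p = 0.0679) did not pass the test, although SUDHL5 did in the same 3 alternatives, on the TPM scale (-0.50, adjusted p = 0.0229) and fitted alone, without the block (adjusted p = 0.00742) and with it (adjusted p = 0.0234). ZFAND2A passed in HT alone, with 5.40, 4.89 and 5.73 FPKM after doxorubicin, against 7.64, 6.47 and 6.33 FPKM untreated (-0.30 ± 0.08, adjusted p = 0.00681). That call was lost without untreated HT replicate 1 (-0.22, adjusted p = 0.0530) and with the HT libraries fitted alone, without the replicate block (adjusted p = 0.0773) and with it (adjusted p = 0.0914). In the other 3 lines the log2 change of ZFAND2A was between -0.09 and 0.09 on the FPKM scale, and it was called lower in OCI-LY3 under median-of-ratios scaling (-0.31, adjusted p = 0.00381) and quantile normalization (-0.37, adjusted p = 0.00110), and in OCI-LY19 under quantile normalization (-0.22, adjusted p = 0.0326).

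Genes that work with the 8 were read from lists chosen for their roles. The counts below are to be set beside the 54.7% of all genes called in OCI-LY3, 32.3% in HT, 58.2% in OCI-LY19 and 38.5% in SUDHL5, and with at most 11 genes per list they are a description. Of 10 tested heat shock and proteotoxic stress genes, the class to which ZFAND2A belongs by its induction, 1 was higher and 6 were lower in OCI-LY3, 7 were lower in HT, 7 in OCI-LY19 and 4 in SUDHL5. Their median log2 change was -0.79 in OCI-LY3, -0.62 in HT, -1.06 in OCI-LY19 and -0.29 in SUDHL5, beside medians over all genes of 0.16 in OCI-LY3, 0.06 in HT, 0.08 in OCI-LY19 and 0.00 in SUDHL5. The chaperone HSPA8 had 252 ± 8.47 FPKM in doxorubicin-treated OCI-LY19, against 730 ± 22.7 FPKM untreated (-1.53 ± 0.20, adjusted p = 2e-06), and HSPH1, a partner of it (-1.50 ± 0.16, adjusted p = 1.15e-07) the mitochondrial chaperonin HSPD1 (-1.46 ± 0.10, adjusted p = 3.83e-10) and its partner HSPE1 (-1.40 ± 0.14, adjusted p = 8.75e-08) fell likewise. In OCI-LY3 HSPA8 (-2.16 ± 0.20, adjusted p = 3.08e-08), HSPH1 (-1.47 ± 0.16, adjusted p = 1.92e-07), HSPE1 (-1.20 ± 0.14, adjusted p = 7.88e-07) and the chaperone HSP90AA1 (-1.03 ± 0.13, adjusted p = 1.72e-06) fell.

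Of 10 tested small MAF partners and targets, 4 were higher and 2 lower in OCI-LY3, 4 higher in HT, 3 higher and 1 lower in OCI-LY19 and 3 lower in SUDHL5. HMOX1, which encodes heme oxygenase, rose in OCI-LY19 by 1.18 ± 0.32 (adjusted p = 0.00356). Of 9 nuclear lamina and linker complex genes, 4 rose and 3 fell in OCI-LY3, 2 rose in HT, 4 rose and 5 fell in OCI-LY19 and 5 fell in SUDHL5. In OCI-LY19 the A-type lamin gene LMNA had 9.92 ± 3.40 FPKM after doxorubicin, against 1.08 ± 0.407 FPKM untreated (2.36 ± 0.17, adjusted p = 6.64e-10), while the B-type lamin gene LMNB1 had 40.5 ± 9.16 FPKM, against 113 ± 7.76 FPKM untreated (-1.49 ± 0.12, adjusted p = 3.02e-09). The other B-type lamin gene, LMNB2, fell too, with 31.6 ± 7.05 FPKM, against 63.6 ± 8.81 FPKM untreated (adjusted p = 6.7e-06), and SYNE2, which encodes an outer nuclear membrane partner of SUN proteins, rose in OCI-LY3 (1.10 ± 0.15, adjusted p = 3.98e-06).

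Of 11 ARF6 cycle genes, 6 rose in OCI-LY3, 4 rose in HT, 6 rose and 1 fell in OCI-LY19, and 5 rose and 1 fell in SUDHL5. CYTH4, an ARF exchange factor, had 10.2 ± 1.80 FPKM in doxorubicin-treated OCI-LY19, against 1.43 ± 0.311 FPKM untreated (2.20 ± 0.15, adjusted p = 2.6e-10), and rose in SUDHL5 as well (1.73 ± 0.15, adjusted p = 2.16e-08). The exchange factor CYTH2 (1.12 ± 0.09, adjusted p = 2.22e-09) and the GTPase-activating protein ARAP1 (1.27 ± 0.07, adjusted p = 5.81e-12) rose in OCI-LY19, and the exchange factor CYTH3 rose in OCI-LY3 (1.17 ± 0.08, adjusted p = 3.62e-10). Of 6 tested cytochrome P450 genes of families 1 to 4 other than CYP2W1, 5 rose in OCI-LY3, 1 in HT, 3 in OCI-LY19 and 2 in SUDHL5, where 1 fell. CYP4F3, a fatty acid hydroxylase, had 2.59 ± 1.33 FPKM in doxorubicin-treated OCI-LY19, against 0.093 ± 0.030 FPKM untreated (1.65 ± 0.15, adjusted p = 1.56e-08), and rose in SUDHL5 by 1.18 ± 0.15 (adjusted p = 3e-06). Of 2 tested estrogen receptor and steroid partner genes, both fell in OCI-LY3, and neither passed in HT, OCI-LY19 or SUDHL5 by limma (unadjusted p under 0.05 for 1, 0 and 1 of them). For the unadjusted threshold the share of all genes is not given here.

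In OCI-LY19R, CYP2W1, GPER1 and GPR146 were all well below OCI-LY19S. The contrast chose these 3 genes, so the values are given as a description. CYP2W1 had 4.65, 0.461 and 0.422 FPKM in OCI-LY19R, against 29.6, 46.7 and 40.2 FPKM in OCI-LY19S. Every OCI-LY19R library was below every OCI-LY19S library, with means of 1.84 ± 2.43 FPKM in OCI-LY19R and 38.8 ± 8.64 FPKM in OCI-LY19S, a 21.1-fold difference. In reads, OCI-LY19R held 434, 34 and 28 of CYP2W1, against 1516, 2680 and 13677 in OCI-LY19S. GPER1 had 4.43, 0.982 and 1.60 FPKM in OCI-LY19R, against 14.5, 42.5 and 27.7 FPKM in OCI-LY19S.
The GPER1 groups did not overlap either, and the mean was 12.1-fold lower in OCI-LY19R. GPR146 had 6.22, 2.31 and 2.29 FPKM in OCI-LY19R, against 10.4, 19.0 and 13.8 FPKM in OCI-LY19S. Its mean was 3.99-fold lower, again without overlap. On the log2(FPKM + 1) scale the differences, OCI-LY19R minus OCI-LY19S, were -4.11 for CYP2W1, -3.15 for GPER1 and -1.81 for GPR146, and in the authors' deposited table the log2 fold changes were -4.46 for CYP2W1, -3.66 for GPER1 and -2.06 for GPR146.

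OCI-LY19R replicate 1 was the highest of the 3 for each of these genes and lay between the OCI-LY19S libraries and the other OCI-LY19R libraries. Without it the differences were -4.77 for CYP2W1, -3.56 for GPER1 and -2.18 for GPR146. On a scale where 0 is the OCI-LY19S mean and 1 the mean of OCI-LY19R replicates 2 and 3, both in log2(FPKM + 1), replicate 1 stood at 0.586 for CYP2W1, 0.483 for GPR146 and 0.647 for GPER1. Over the 22 genes lower by at least 2 log2 units in OCI-LY19R replicates 2 and 3 its median position was 0.802, and over the 15 genes higher by that much it was 0.684. CYP2W1, GPER1 and GPR146 are among the 22. Both sets were picked on replicates 2 and 3, which also set the scale, so the choice itself favours positions under 1.

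Of the other 5 genes, 2 had non-overlapping groups. C7orf50 had 14.3, 12.9 and 13.6 FPKM in OCI-LY19R, against 15.3, 25.0 and 23.6 FPKM in OCI-LY19S, a mean 1.57-fold lower. ADAP1 had 1.81, 2.38 and 2.13 FPKM in OCI-LY19R, against 3.41, 3.23 and 2.89 FPKM in OCI-LY19S, a mean 1.51-fold lower. The groups overlapped for SUN1 (9.94 ± 0.244 FPKM in OCI-LY19R and 9.82 ± 1.75 FPKM in OCI-LY19S), ZFAND2A (6.31 ± 0.405 FPKM and 7.28 ± 0.935 FPKM) and MAFK (57.3 ± 2.94 FPKM and 67.2 ± 9.50 FPKM). In all, 5 of the 8 genes were lower without overlap, a share that the choice of genes fixed in part, beside 11.8% of the 12785 genes tested (32.7% in either direction); by limma 5.44% of genes were called. CYP2W1, GPER1 and GPR146 were chosen as low in OCI-LY19R, cells 1 week off doxorubicin, beside OCI-LY19S. Their means were also lower in doxorubicin-treated than in untreated OCI-LY19, where the CYP2W1 groups overlapped. The 2 sets of libraries were normalised separately and compared only within each, and a link between the 2 contrasts was not tested.

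The wider region was read from SUN1 to MAFK, 726 kb that hold 24 annotated genes, 17 of them tested in each table. In OCI-LY19R, 5 of the 17 were lower by at least 1 log2 unit, namely CYP2W1, GPR146, GPER1, AC073957.2 and the microRNA gene MIR339 (-1.18, adjusted p = 0.0677), as were 1.17% of all genes tested. Of these 5, CYP2W1, GPR146 and GPER1 were chosen by this contrast and AC073957.2 shares exon bases with GPR146. In doxorubicin-treated OCI-LY19 4 were lower by as much (CYP2W1, GPR146, AC073957.2 and GPER1) and 2 were higher, beside 3.08% and 7.68% of all genes, and in SUDHL5 4 were lower (GPR146, AC073957.2, GPER1 and AC093734.1), beside 1.43%. None was lower by as much in OCI-LY3 or HT, where 2 and 3 were higher, beside 5.73% of all genes in OCI-LY3 and 1.06% in HT. In OCI-LY19R COX19, the next tested gene before CYP2W1, had a log2 difference of -0.41, and C7orf50 -0.58.

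**Figure D4:**
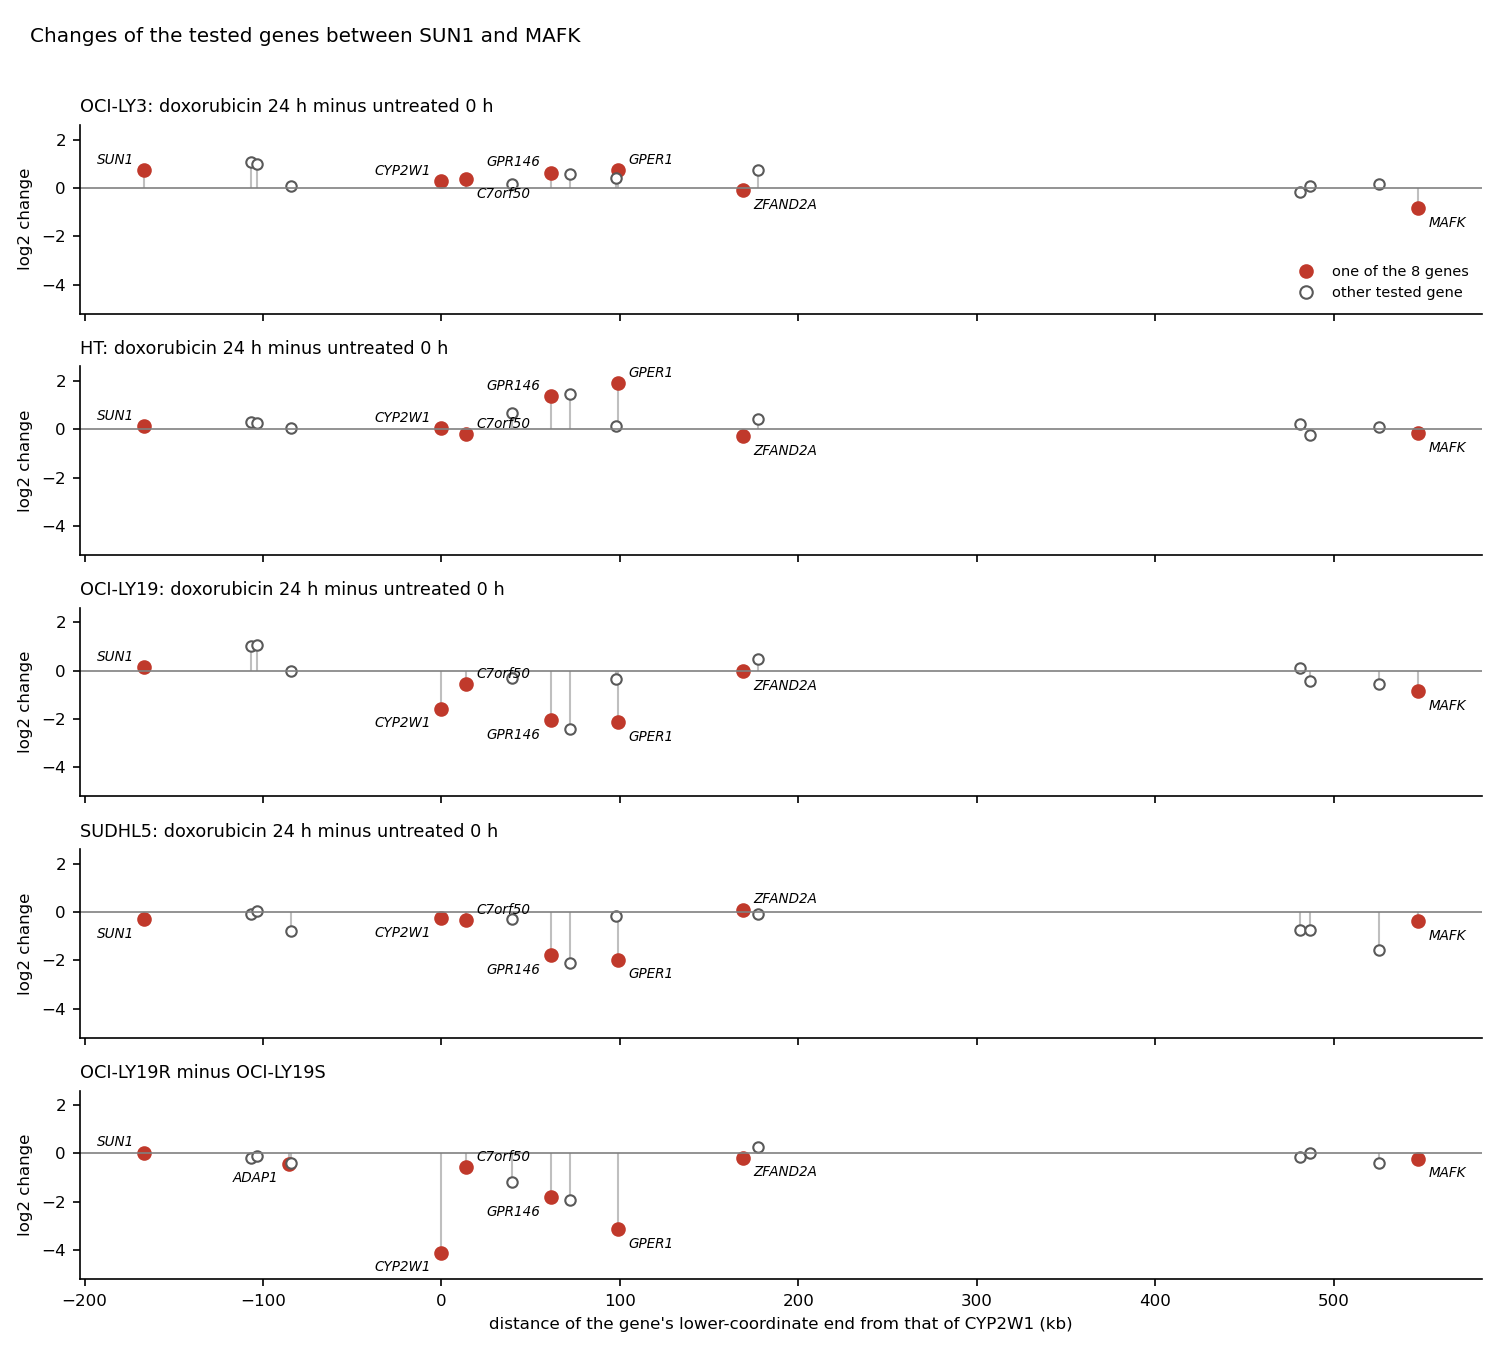
Log2 change of each tested gene from SUN1 to MAFK against the distance in kb of its lower-coordinate end from that of CYP2W1, 1 panel per comparison; red points are the 8 genes, open points other tested genes. The points lower by at least 1 log2 unit in OCI-LY19 and OCI-LY19R lie between 0 and 99.0 kb. C7orf50, which spans GPR146 and GPER1, is at -0.58 in OCI-LY19R, and MAFK, at 547.5 kb, is at -0.86 in OCI-LY19.

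Beyond the 8 genes, 27 flanking genes of 7p22 were listed and 19 were tested in the 4 lines. In OCI-LY3 8 were higher and 4 lower, in HT 3 higher and 2 lower, in OCI-LY19 6 higher and 7 lower, and in SUDHL5 6 higher and 4 lower. Their median log2 changes were 0.23 in OCI-LY3, 0.03 in HT, -0.03 in OCI-LY19 and 0.01 in SUDHL5, close to those of all genes. TTYH3, a membrane protein gene, had 98.0 ± 2.89 FPKM in doxorubicin-treated OCI-LY19, against 23.3 ± 4.96 FPKM untreated (2.04 ± 0.11, adjusted p = 1.97e-11), and PDGFA, a growth factor gene, had 15.7 ± 1.72 FPKM, against 4.58 ± 1.34 FPKM untreated (1.60 ± 0.11, adjusted p = 3.89e-10). DNAAF5, a dynein arm assembly factor, had 10.1 ± 1.98 FPKM in doxorubicin-treated OCI-LY19, against 23.0 ± 1.85 FPKM untreated (-1.13 ± 0.09, adjusted p = 5.57e-09). EIF3B, a translation initiation factor subunit, fell in OCI-LY3 (-1.05 ± 0.08, adjusted p = 5.43e-09). TTYH3 also rose in OCI-LY3 (1.12 ± 0.11, adjusted p = 1.17e-07) and SUDHL5 (2.42 ± 0.11, adjusted p = 5.49e-12). In OCI-LY19R none of 16 tested flanking genes was called by limma (4 at an unadjusted p under 0.05), and 5 of 23 had an adjusted p under 0.05 in the authors' deposited table. Of these, PDGFA (log2 fold change 1.74), IQCE (0.84) and MAD1L1 (0.83) were higher, and ELFN1 (-3.21) and PSMG3 (-0.34) were lower. The share of all genes at the unadjusted threshold or in the authors' values is not given here, so these counts are a description. Of the partner lists, HSPB1, a small heat shock protein gene, was called higher in OCI-LY19R (1.54, adjusted p = 0.0418 by limma), as 1 of 10 tested heat shock genes. Limma called 0 of 10 small MAF partners and targets, 0 of 7 lamina and linker genes, 0 of 10 ARF6 cycle genes, 0 of 4 cytochrome P450 genes and 0 of 1 estrogen receptor and steroid partner genes. At an unadjusted p under 0.05 it was 1 small MAF gene, 1 lamina or linker gene, 2 ARF6 cycle genes, 0 cytochrome P450 genes and 1 steroid partner gene. Of all genes tested in this contrast limma called 5.44%, and the share at the unadjusted threshold is not given here.

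Patterns like those of the 3 genes were sought over the 8 group means of the 4 lines, each centred on its own mean, among 14674 tested genes with a symbol, by the root-mean-square difference in log2(FPKM + 1). The closest to CYP2W1 were GAS1 (0.22), HPGD (0.25) and TUNAR (0.25), whose means were all below 1 FPKM in the other 3 lines. The closest to GPR146 were ELOVL6 (0.46), NEIL3 (0.51) and SUB1 (0.52), and to GPER1 SPC25 (0.58), SCD (0.59) and RAB33A (0.61). The 3 genes were farther from each other than from these, with 0.84 between CYP2W1 and GPR146, 1.15 between GPER1 and GPR146 and 1.80 between CYP2W1 and GPER1. GPR146 ranked 5467th among the genes nearest to GPER1, by a measure into which differences between the untreated lines enter as well as the response.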

How the data were processed

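Expression was measured by RNA sequencing in 30 libraries, 3 in each of 10 groups taken from the labels. Per the labels' protocols the RNA was poly(A)-selected and libraries were directional. The authors deposited FPKM values, aligned to hg38, with Trimmomatic, STAR and featureCounts named in the submitters' processing notes; versions and the strand setting were not given in these sources. In 1 table the authors deposited log2 fold changes and p-values for OCI-LY19R and OCI-LY19S beside the FPKM; the base mean there, a scaled signal deposited by the authors, and the standard error and test statistic, deposited as scores, were not interpreted. The 2 tables were normalised separately, so tests were run within each.

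limma 3.58.1 in R 4.3.3 was run on log2(FPKM + 1) for genes at 1 FPKM or more in at least 3 libraries, giving 17645 genes (4 lines, all 8 groups in 1 model, 16 residual degrees of freedom) and 12785 genes (OCI-LY19R and OCI-LY19S, 4 degrees of freedom). Of 39344 genes with the same ID version in GENCODE 29, at least 99.95% of nonzero values per library were whole within 0.01 read with its exon lengths. Reads were recovered for the 25435 of these genes that were detected and whole in every library. These gave depth and the voom alternative. The 8 genes have other ID versions in GENCODE 29, so their read counts rest on an exon length fitted to make their values whole. It was 2791 bases for CYP2W1 (2773 in GENCODE 29) and 3190 for GPR146 (3160 in GENCODE 29). With these counts the 8 genes also entered the voom alternative where they passed the filter. Depth was 16067405 to 38337869 reads, except for 121769122 in OCI-LY19S replicate 3. Alternatives changed the pseudocount, the filter, the scaling, the replicate block, the library-name tag and each replicate. On data simulated from the fitted model with normal noise and shifts in OCI-LY3 alone, most known changes were recovered by the fit used here. It was a check on the running of the fit. Genes with low means were not shifted, and the fit of OCI-LY19R and OCI-LY19S was not simulated.

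Replicate numbers met the rule for pairing in HT only (correlations of deviations 0.167, 0.320 and 0.347). P-values measure the spread between cultures within groups, pooled for each gene over all groups in the model and not estimated for each line. The standard error of CYP2W1 was thus 0.35 in all 4 lines, although its replicates lay closer together in SUDHL5 than in OCI-LY19. All 8 genes are named in every group; list genes are named where they passed with an absolute log2 change of at least 1, the largest first and at most 4 per list and comparison. The members, lists and nearest-pattern rule were chosen with earlier results of these data known. Of the B cell marker list, 1 gene is not reported here.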

Additional observations from a re-analysis of the deposited data

Results flagged for a closer look

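Each of the 7 tested genes was flagged because its doxorubicin response differed among the 4 lines by limma's test over all lines, as it did for 72.2% of all genes. The adjusted p was 1.37e-08 for GPER1 and 1.38e-08 for GPR146, whose responses had opposite directions in OCI-LY3 and HT on one side and OCI-LY19 and SUDHL5 on the other. It was 1.2e-05 for SUN1, 0.0052 for C7orf50, 0.0105 for CYP2W1, 0.0259 for MAFK and 0.026 for ZFAND2A. The calls of CYP2W1 (adjusted p = 0.0937 under voom), MAFK (0.0579 with no filter on low genes) and ZFAND2A (0.0707 on a TPM scale, 0.225 under voom) were lost in those settings. No group has more than 3 libraries, so single libraries were not tested as outliers.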

How the results depend on the processing

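Of 706 combinations of 50 results with an alternative setting, 654 kept direction and side of the threshold, 35 lost and 11 gained a call, 6 descriptive values moved and 0 reversed. The falls of GPER1 and GPR146 in OCI-LY19 and SUDHL5 and the rise of GPER1 in HT held in all 17 alternatives run for each. Beside the values in the report, limma-voom on recovered reads, chosen after seeing the data and run on 6954 and 4008 genes, called 2707 genes in OCI-LY3, 1244 in HT, 3024 in OCI-LY19, 1572 in SUDHL5, 2985 for the difference among lines, 5602 among untreated lines and 207 in OCI-LY19R, where limma on FPKM called 9650, 5699, 10277, 6789, 12737, 15976 and 696; fewer genes were tested. A filter at 5 FPKM gave 10242 among untreated lines and 368 in OCI-LY19R, no filter 130 and the replicate block 276 in OCI-LY19R, where leaving out 1 library gave 65 (without OCI-LY19R replicate 2) to 1129 (without OCI-LY19S replicate 1) and each of the 6 libraries moved the count by over 1.5 times. The replicate block gave 9698 genes in OCI-LY3, 5773 in HT, 10364 in OCI-LY19, 6854 in SUDHL5, 12856 for the difference among lines and 16020 among untreated lines, and among the 7 genes it ended the call of C7orf50 in OCI-LY3 alone (adjusted p = 0.0618). Deviations of same-numbered libraries correlated at -0.012 to 0.362 in OCI-LY3, 0.036 to 0.355 in OCI-LY19, -0.020 to -0.014 in SUDHL5 and -0.115 to 0.118 between OCI-LY19R and OCI-LY19S, where the samples share only a number. Fits of 1 line with the block were also chosen after seeing the data.

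CYP2W1 in OCI-LY3 was 1.39 with a pseudocount of 0.1 and passed. GPR146 in OCI-LY3 missed the threshold at 0.34 under quantile normalization. GPER1 in OCI-LY3 missed it at 0.49 under median-of-ratios scaling, at 0.59 under quantile normalization and, unchanged at 0.74, with the line fitted alone, with or without the block. With the line fitted alone, CYP2W1 missed it in OCI-LY19 (-1.57) and passed in SUDHL5 (-0.26), and GPR146 in HT missed it with the block (1.38). Leaving out 1 library gave 0.56 to 0.73 for GPR146 in OCI-LY3 and 0.60 to 1.01 for GPER1 in OCI-LY3. CYP2W1 missed the threshold for the difference among lines under voom (adjusted p = 0.0937), and GPER1 that among untreated lines with no filter (adjusted p = 0.0573). CYP2W1 in OCI-LY19R minus OCI-LY19S was -5.10 with a pseudocount of 0.1, -4.76 on a TPM scale and -5.17 under voom, and between -4.77 and -3.77 with 1 library left out. The cause was not tested.

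Calls in OCI-LY3 split into 7128 higher and 2522 lower genes, against 4737 and 4461 under median-of-ratios scaling and 4344 and 4197 under quantile normalization. In HT the split was 4038 and 1661, against 2896 and 2287 under median-of-ratios scaling and 2470 and 2260 under quantile normalization, in OCI-LY19 6093 and 4184, against 4426 and 5482 under quantile normalization, and in OCI-LY19R 397 and 299, against 299 and 367 under median-of-ratios scaling and 302 and 341 under quantile normalization. In SUDHL5 it was 3283 and 3506, against 2602 and 4236 on the TPM scale. When the tag in the library names entered the fit, C7orf50 in OCI-LY3 alone lost its call among the 7 genes (0.36, adjusted p = 0.0546). SUDHL5, OCI-LY19R and OCI-LY19S libraries carry no such tag, and each tag holds too few libraries for values within it. In that fit the tag of untreated OCI-LY19 replicate 2, found in no other library, was merged with that of the replicate 1 libraries. The SUDHL5 libraries were given the same tag. CYP2W1 in OCI-LY3 and HT rests on at most 24 reads per library.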

Other observations

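Flanking genes of 7p22 with an adjusted p under 0.05 in the authors' deposited table went in both directions in OCI-LY19R against OCI-LY19S. They are a description, since the share of all genes called in the authors' values is not given here. PDGFA had a log2 fold change of 1.74, with means of 8.56 FPKM in OCI-LY19R and 2.48 FPKM in OCI-LY19S. IQCE (0.84) and MAD1L1 (0.83) were also higher, and PSMG3 (-0.34) was lower. ELFN1, a flanking gene of 7p22, had a log2 fold change of -3.21 in the authors' deposited table for OCI-LY19R against OCI-LY19S. It had 0.179, 0.148 and 0.131 FPKM in OCI-LY19R, against 1.80, 2.05 and 0.284 FPKM in OCI-LY19S.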
